A study of Mus musculus with 2 samples.

Results

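The 7 genes described here make up the core of the MHC class II presentation machinery in mouse: H2-Aa, H2-Ab1, H2-Eb1, Cd74, H2-DMa, H2-DMb1 and Ciita. They were taken by symbol from a table of 33696 genes that was measured by single-cell RNA-seq (scRNA-seq) in CD45+ cells of the injured thalamus. No limit on a measured value was used, but earlier results of these data were known when they were chosen. The question was how many transcripts of each gene the different immune cells of the thalamus held, and how that compared between mice that had received control Ab and mice that had received anti-CD9 Ab.

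MHC class II molecules are pairs of an α and a β chain that show peptides from engulfed or extracellular proteins to CD4+ T cells. H2-Aa and H2-Ab1 encode the α and β chains of I-A, and H2-Eb1 encodes the β chain of I-E, whose α chain gene, H2-Ea, is not transcribed in C57BL/6 mice because of a promoter deletion. Cd74 is the invariant chain, which blocks the groove of new class II pairs and guides them to endosomes. H2-DMa and H2-DMb1 encode the chains of H2-DM, which swaps the last piece of the invariant chain for a peptide. Ciita is the transactivator that switches the family on, mostly in response to interferon-γ in macrophages and microglia and constitutively in dendritic cells and B cells. Resting microglia are known for very low class II, and mouse T cells are not known to make it.

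Ciita does not bind DNA by itself but is held at class II promoters by factors that sit on the X box (the RFX complex and CREB) and the Y box (NF-Y). Promoters of 4 of the 7 members (H2-Aa, H2-Eb1, H2-DMa and H2-DMb1) were taken from a RefSeq table of 300-base promoters. These span 250 bases before to 50 after each start site (GRCm38.p6). Not every chromosome of the table was searched for members. The following windows show the members in which letters close to both boxes were present, since these are the elements through which Ciita, the member with the highest ratio between the libraries in microglia, acts on the others. They lie upstream of the annotated start sites, are written 5′ to 3′ on the gene's strand, and carry in capitals the X-box-like letters (CTNGNAAC) and then the Y-box-like letters (GATTGG).
H2-DMb1, chr17:34153074-34153173, plus strand: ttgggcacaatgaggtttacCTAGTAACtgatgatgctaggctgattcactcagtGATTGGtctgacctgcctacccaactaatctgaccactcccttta
H2-Aa, chr17:34287828-34287927, minus strand: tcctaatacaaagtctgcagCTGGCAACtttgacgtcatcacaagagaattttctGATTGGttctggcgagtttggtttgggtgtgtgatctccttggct
H2-Eb1, chr17:34305753-34305852, plus strand: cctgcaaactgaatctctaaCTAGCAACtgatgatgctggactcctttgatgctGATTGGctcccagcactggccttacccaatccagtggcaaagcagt

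The X-box-like letters began 97, 84 and 94 bases before the start sites of H2-DMb1, H2-Aa and H2-Eb1, and the Y-box-like letters 62, 49 and 60 bases before them. The stretch between both was 27 bases long in H2-DMb1 and H2-Aa and 26 bases long in H2-Eb1. Of 32851 promoters in the same table, searched on both strands, 13.2% held CTNGNAAC, 16.1% held GATTGG, 2.17% held both and 0.624% held both within 40 bases. In H2-DMa, GATTGG was found 199 bases before the start site, and CTNGNAAC was not in the 300 bases. H2-Eb1 held GATTGG a second time on the minus strand, 35 bases before the start site, which lies in the printed window and is not in capitals. The letters were written down after the sequences had been read, and a match is a description of sequence, not a sign of binding.

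The data consisted of 2 libraries from C57BL/6J mice (written C57B6/J in the labels), both after cortical ablation injury (CAI), a surgical removal of sensorimotor cortex. Antibody at 1.0 μg/μl, either normal rat IgG (control Ab) or anti-CD9 clone KMC8 (anti-CD9 Ab), was given into the thalamus through cannulas from day 7 to day 19, and live CD45+ cells were sorted on day 21. The number of mice behind each library is not given in the labels, and the study's methods pooled cells of several mice for scRNA-seq of the thalamus. All mice were injured and injected, there was no library from uninjured or uninjected mice, the labels give neither sex nor age, and most experiments of the study used females.

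Unique molecular identifiers (UMIs), each counting 1 captured transcript, totalled 38042608 in 12245 barcodes of the control Ab library and 40825201 in 15173 barcodes of the anti-CD9 Ab library. The quality limits of the study kept 7467 (61.0%) and 9162 cells (60.4%), with medians of 1880 and 1419 UMIs, and 18 barcodes were kept in both libraries. There was 1 library per antibody. No test between antibodies was therefore possible, and antibody, mice and library cannot be told apart. Values are UMIs summed over the cells of a type and scaled to a common total of UMIs (CPM), with exact 95% intervals that cover counting error only. Log2 ratios are anti-CD9 Ab over control Ab, and where a pair of values is printed without names the control Ab library comes first.

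Cells were clustered without the members and 34 other genes of the class II pathway. Of 24 clusters, 16 could be given 1 of 10 cell type names from marker lists. The composition of the libraries was far apart. Neutrophil-like cells numbered 60 and 2604, macrophage-like cells 277 and 1246, dendritic cell-like cells 109 and 358, and B cell-like cells 29 and 99, so all of these were more numerous in the anti-CD9 Ab library. T cell-like cells numbered 2837 and 982, and microglia-like cells 1867 and 847. Astrocyte-like (426 and 77) and oligodendrocyte-like cells (305 and 92) were present despite the CD45 sort. Microglia-like cells fell into cluster 3, led by Siglech and P2ry12 (941 and 477 cells), and cluster 6, led by Lpl, Cst7 and Spp1 (926 and 370 cells). These clusters were not in the same state in both libraries: summed damage-associated markers were at 18532 and 8703 CPM in cluster 3 and at 75010.1 and 40422 CPM in cluster 6, and summed homeostatic markers at 3891 and 2222 CPM in cluster 3.

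Over all kept cells, each of the 7 members had a higher CPM in the anti-CD9 Ab library. H2-Aa was at 1366 and 2049 CPM, H2-Ab1 at 886 and 1564 CPM, and H2-Eb1 at 991 and 1665 CPM. The sum of these 3 class II chains was 3242 and 5279 CPM, which is a log2 ratio of 0.70 (0.69 to 0.72). Cd74 was at 2845 and 3923 CPM (0.46), H2-DMa at 181 and 195 CPM (0.11), H2-DMb1 at 120.0 and 146 CPM (0.28), and Ciita at 23.0 and 58.7 CPM (1.35, 1.21 to 1.49). Ciita had the highest ratio and H2-DMa the lowest. The median log2 ratio of all 15136 genes with at least 50 UMIs was −0.37, and the mix of cells differed between the libraries, so the following values are given within cell types.

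Levels differed more between cell types than between the libraries. Dendritic cell-like cells, the professional antigen-presenting cells, held the class II chains at 24249.5 CPM in the control Ab library and at 19727 CPM in the anti-CD9 Ab library. B cell-like cells followed at 9709.7 and 8612.5 CPM, macrophage-like cells at 7289 and 8994 CPM, microglia-like cells at 3761 and 4710.2 CPM, and plasma cell-like cells at 1593 and 896 CPM. Oligodendrocyte-like cells were at 1255 and 1156 CPM and astrocyte-like cells at 704 and 1167 CPM, so both were above plasma cell-like cells in the anti-CD9 Ab library. B cell-like and macrophage-like cells exchanged places in this order between the libraries. Without predicted doublets they did not, with B cell-like cells at 12709 and 10965.5 CPM and macrophage-like cells at 7081 and 9218 CPM. Neutrophil-like cells were at 863 and 482 CPM and T cell-like cells at 319 and 307 CPM. The T cell-like level stands here for the background of free RNA and attached cells, since these cells should lack the chains. Other cells that should lack them were at other levels. Cluster 10 with T and NK cell markers was at 160.1 and 599 CPM, and cluster 13 with neural genes at 352 and 1548 CPM. Cycling T cell-like cells (cluster 20) were at 636 and 259.9 CPM. The background may thus be higher elsewhere and unequal between the libraries, which was not tested.

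**Figure D1:**
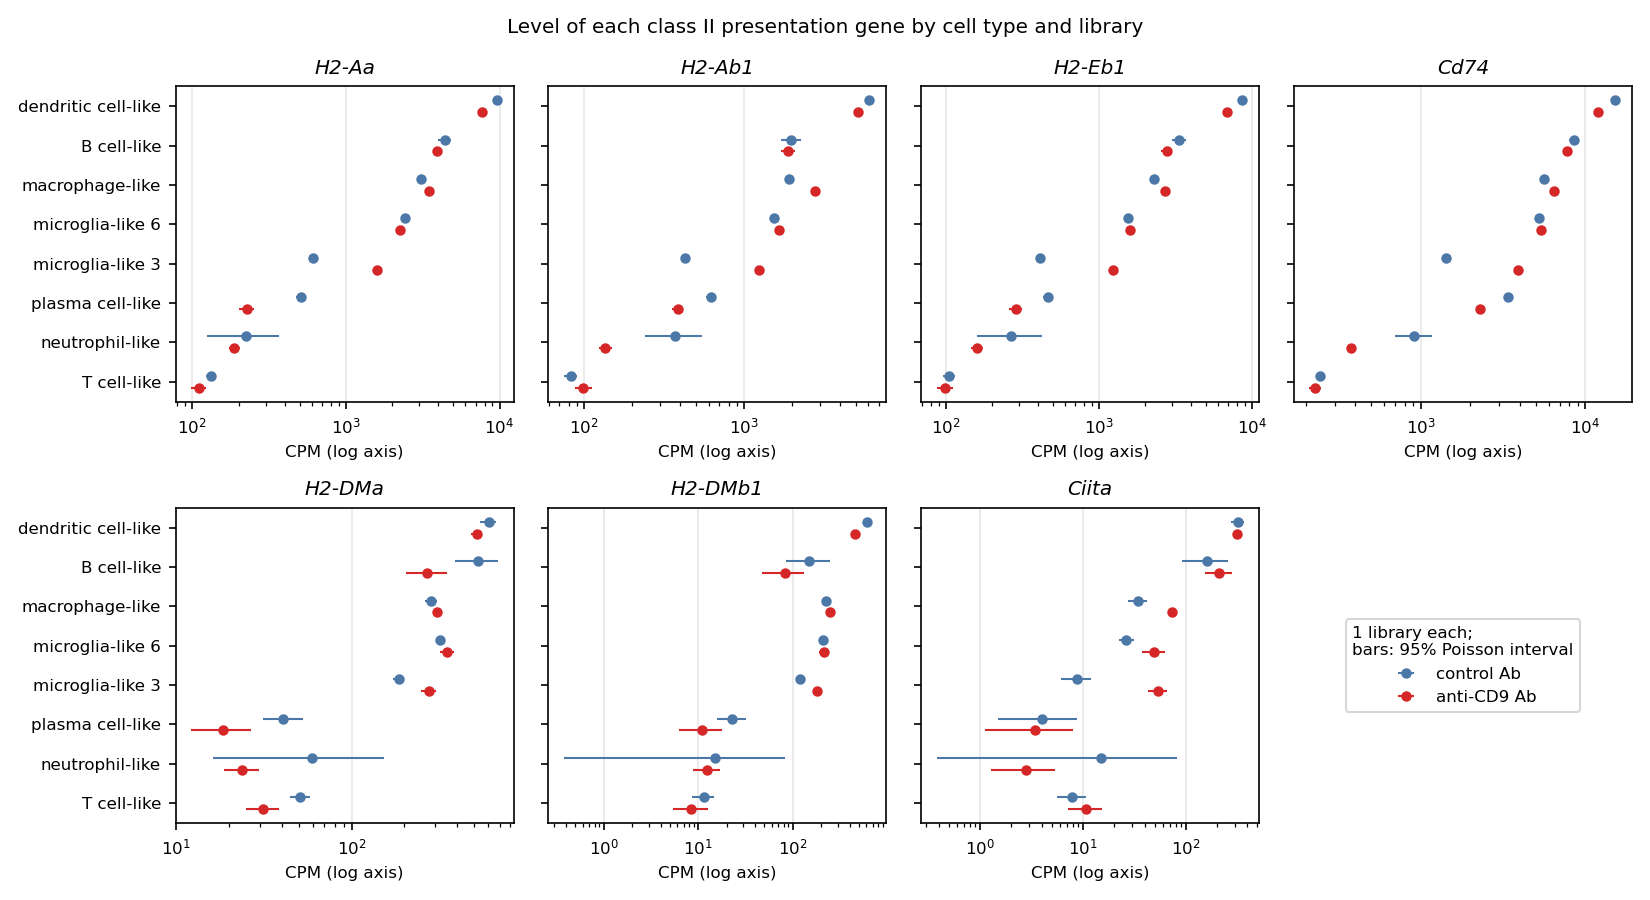
Level of each of the 7 members (CPM, log axis) by cell type, with control Ab in blue and anti-CD9 Ab in red; each point is 1 library and bars are 95% Poisson intervals. Dendritic cell-like cells are at the top for H2-Aa (9573 and 7659 CPM) and Ciita (320.2 and 316 CPM), and for H2-Aa, H2-Ab1, H2-Eb1, Cd74 and Ciita microglia-like cluster 3 shows the blue point well to the left of the red one.

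In microglia-like cells, each of the 7 members was higher in the anti-CD9 Ab library, with log2 ratios from 0.20 (H2-Aa) to 1.46 (Ciita). The class II chains had a log2 ratio of 0.32 (0.30 to 0.35), from 35788 and 13822 UMIs. This figure joined a pair of clusters that differed. In cluster 3, the microglia nearest to the homeostatic state, the chains were at 1444 CPM in the control Ab library against 4068 CPM in the anti-CD9 Ab library, which is a log2 ratio of 1.49 (1.44 to 1.55). In cluster 6, the Lpl-high and Spp1-high microglia, they were at 5533 and 5497 CPM (−0.0095, −0.047 to 0.028). The value in cluster 6 moved with the processing, between −0.052 with the most abundant genes left out and 0.48 without integration, and was 0.14 without predicted doublets, which were 7.67% and 22.7% of its cells. The gap between the clusters in the control Ab library, 1444 against 5533 CPM, was thus narrower in the anti-CD9 Ab library. For thinned cells, the chain UMIs expected at 1000 UMIs were averaged over cells with at least that many, each with the same weight. The log2 ratio was then 0.66 in microglia-like cells and 2.23 in cluster 3.

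The chains of I-A and I-E in cluster 3 had ratios close to each other. H2-Aa was at 606 CPM (2500 UMIs) and 1583 CPM (2559 UMIs), a log2 ratio of 1.38 (1.30 to 1.46). H2-Ab1 was at 425 and 1244 CPM, with a log2 ratio of 1.55 (1.46 to 1.64), and H2-Eb1 at 412 and 1242 CPM, with a log2 ratio of 1.59 (1.497 to 1.685). Cd74, their invariant chain, followed them at 1418 and 3873 CPM (1.45, 1.398 to 1.501). Transcripts of these chains and of Cd74, 4 genes in all, were thus between 2.61-fold and 3.01-fold higher in the anti-CD9 Ab library.

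H2-DM and Ciita departed from this in opposite ways. H2-DMa was at 186 and 274 CPM (log2 ratio 0.56, 0.39 to 0.73) and H2-DMb1 at 118 and 183 CPM (0.63, 0.41 to 0.84), both under 2-fold. Ciita was at 8.73 CPM (36 UMIs) and 53.8 CPM (87 UMIs), a 6.16-fold difference with a log2 ratio of 2.62 (2.05 to 3.23), the highest of the members but the least precise. H2-DMb1 has a near-identical neighbour, H2-DMb2, and reads shared by both could have been lost or split.

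In cluster 6, the corresponding log2 ratios were −0.12 for H2-Aa, 0.094 for H2-Ab1, 0.047 for H2-Eb1, 0.043 for Cd74, 0.13 for H2-DMa and 0.036 for H2-DMb1. Ciita was at 26.5 CPM (143 UMIs) and 49.3 CPM (65 UMIs), a log2 ratio of 0.89 (0.45 to 1.33), higher in the anti-CD9 Ab library while the chains had a log2 ratio of −0.0095. That value of the chains moved with the processing and was above its counting interval in most alternatives.

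Counted against a 2-fold difference, 5 of the 7 members (the 3 chains, Cd74 and Ciita) were at least 2-fold higher in cluster 3 and 0 were lower. Of all 9332 genes with at least 50 UMIs in this cluster, 2.6% were at least 2-fold higher and 3.36% at least 2-fold lower. In cluster 6, 0 of 7 members passed in either direction, with 4.03% of 9493 genes higher and 4.61% lower. In microglia-like cells as a whole, 1 of 7 (Ciita, 18.8 and 51.8 CPM) was at least 2-fold higher, against 3.35% of genes higher and 4.24% lower. The median log2 ratio of the members was 1.45 in cluster 3 and 0.047 in cluster 6, where that of all genes was −0.028 and 0.010.

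**Figure D2:**
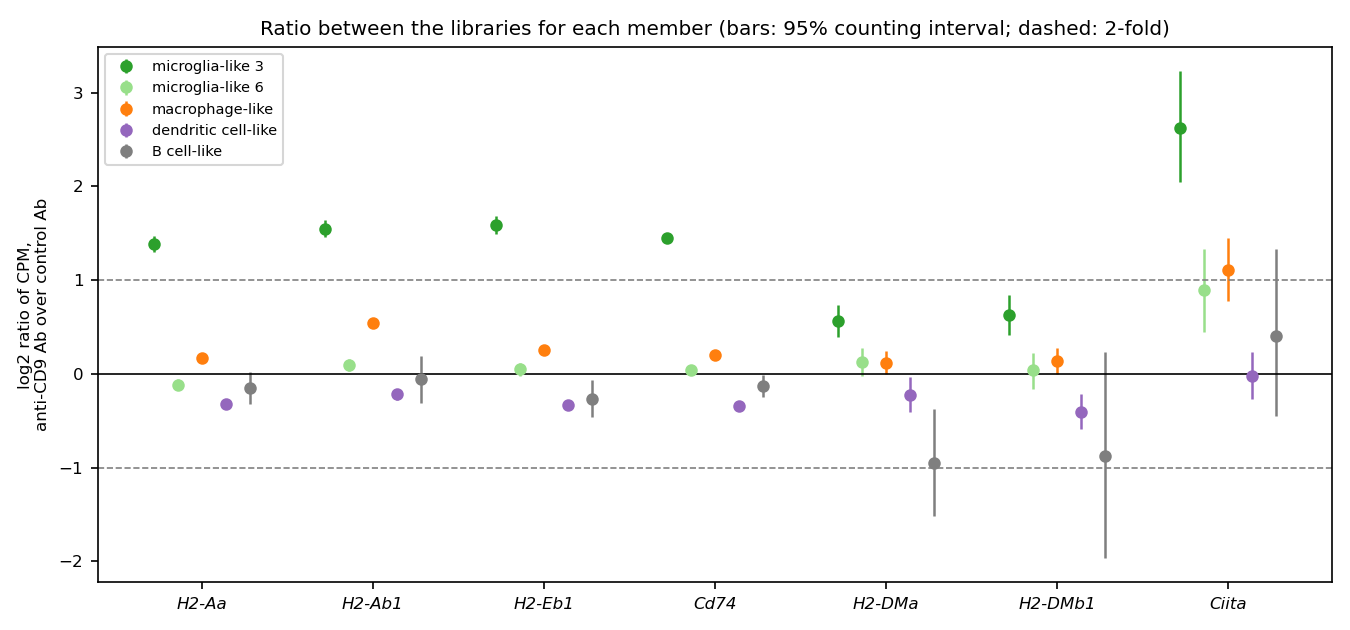
Log2 ratio of CPM (anti-CD9 Ab over control Ab) for each member in microglia-like clusters 3 and 6 and in macrophage-like, dendritic cell-like and B cell-like cells; bars are 95% counting intervals and dashed lines mark 2-fold. The points of cluster 3 lie between 0.56 and 2.62, while those of dendritic cell-like cells lie between −0.40 and −0.018.

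The higher level in cluster 3 was found in many of its cells. After thinning to 1000 UMIs, 68.3% of 925 cells of the control Ab library held no class II chain UMI, compared with 21.9% of 475 cells of the anti-CD9 Ab library. Cells with 3 or more chain UMIs made up 10.3% (8.39 to 12.4%) and 51.8% (47.2 to 56.4%), a difference of 41.5 percentage points (36.6 to 46.3). Without thinning they were 25.7% and 71.3%, and the median depths were 2439 and 3234 UMIs. In cluster 6 the thinned shares were 56.1% and 56.3%, a difference of 0.14 points (−5.99 to 6.18). In T cell-like cells, with median depths of 1553 and 2273.5 UMIs, the same share was 0.92% and 1.10%, and 1.94% and 4.89% without thinning.

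Cd74 and H2-Aa transcripts were found in a larger share of cluster 3 cells of the anti-CD9 Ab library as well. Of thinned cells, 18.2% and 60.6% held an H2-Aa UMI, and 33.5% and 79.8% held a Cd74 UMI. H2-DMa was found in 15.4% and 23.8% of these cells, and Ciita in 0.76% (0.31 to 1.55%) and 5.26% (3.43 to 7.67%). In T cell-like cells the thinned shares were 7.78% and 7.84% for H2-Aa, 14.6% and 17.1% for Cd74, 5.46% and 2.10% for H2-DMa, and 0.80% and 0.88% for Ciita. Ciita in cluster 3 of the control Ab library was therefore at the T cell-like share, so its ratio there is set against a level that cannot be told from background.

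**Figure D3:**
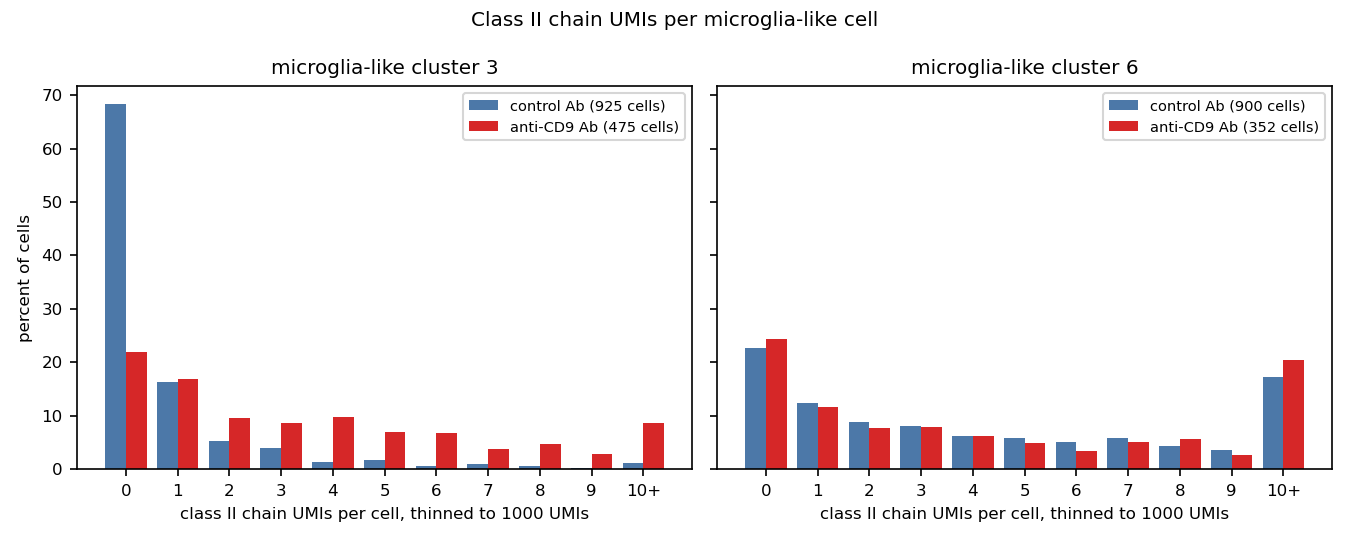
Percent of microglia-like cells (y axis) by their number of class II chain UMIs after thinning to 1000 UMIs (x axis, 10 and over joined), for clusters 3 and 6, with control Ab in blue and anti-CD9 Ab in red. In cluster 3 cells without a chain UMI make up 68.3% of the blue bars and 21.9% of the red bars, and in cluster 6 22.7% and 24.4%.

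Clustering of the microglia-like cells alone, again without the class II genes, gave 10 sub-clusters. Sub-cluster 0, led by Gm35188, Cacnb2 and Prkca, held the fewest class II chains in the control Ab library, 477 CPM (700 UMIs in 611 cells). In the anti-CD9 Ab library it held 3613 CPM (3052 UMIs in 279 cells), a log2 ratio of 2.92 (2.80 to 3.04). H2-Aa there was at 204 and 1425 CPM, and Cd74 at 522 and 3458 CPM. H2-DMa was at 166 and 249.8 CPM (log2 ratio 0.59, 0.32 to 0.86), so this member was nearer to its level in other microglia where the chains were close to the T cell-like level. Ciita was found as 7 UMIs (4.77 CPM) and 43 UMIs (50.9 CPM), a log2 ratio of 3.42 (2.25 to 4.81). T cell-like cells held 39 Ciita UMIs out of 4924240 UMIs in the control Ab library, so the 7 UMIs cannot be told from background. Of thinned cells of sub-cluster 0, 4.54% and 46.9% held 3 or more chain UMIs.

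The summed chains of the other large sub-clusters differed less between the libraries. Sub-cluster 1, led by Ctnna3, Csf1 and Lpl, held the chains at 4757 and 6320.3 CPM (log2 ratio 0.41, 0.37 to 0.45) in 653 and 172 cells. Sub-cluster 2, led by Saa3, Aoah and Cxcl13, held them at 3655 and 4631 CPM (0.34, 0.27 to 0.41) in 320 and 244 cells. Ciita did not follow the chains there, at 4 and 43 UMIs out of totals of 738916 and 770057 UMIs. The 4 UMIs cannot be told from background either. Cells of sub-cluster 2 with 3 or more chain UMIs after thinning were 27.5% and 56.0%, so shares of cells were farther apart than summed levels.

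Chains were lower in the anti-CD9 Ab library in the small sub-clusters 4, 7 and 8, with an interval on both sides of 0 in sub-cluster 7. Sub-cluster 4, led by Ccl8, Saa3 and Cxcl13 (45 and 41 cells), was at 10442 and 7448 CPM (−0.49, −0.63 to −0.34), and held 0 and 1 Ciita UMIs. Sub-cluster 7, led by Cxcl10, Rsad2 and Ifit3 (22 and 16 cells), was at 6457 and 5961 CPM (−0.12, −0.30 to 0.07). Sub-cluster 8, led by Cxcl10, Gbp5 and Ccl12 (7 and 21 cells), was at 6319 and 4887 CPM (−0.37, −0.66 to −0.076). Sub-cluster 5, led by Nos1ap and Itga9, was at 967 and 2249.7 CPM in 74 and 4 cells, and sub-cluster 9, led by Igkc and Pola1, at 4441 and 6574 CPM in 8 and 9 cells. Sub-clusters 3 and 6 were predicted doublets in 71.9% and 71.6% of their cells. Among the other 8 sub-clusters the chains ranged from 477 to 10442 CPM in the control Ab library and from 2249.7 to 7448 CPM in the anti-CD9 Ab library.

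**Figure D4:**
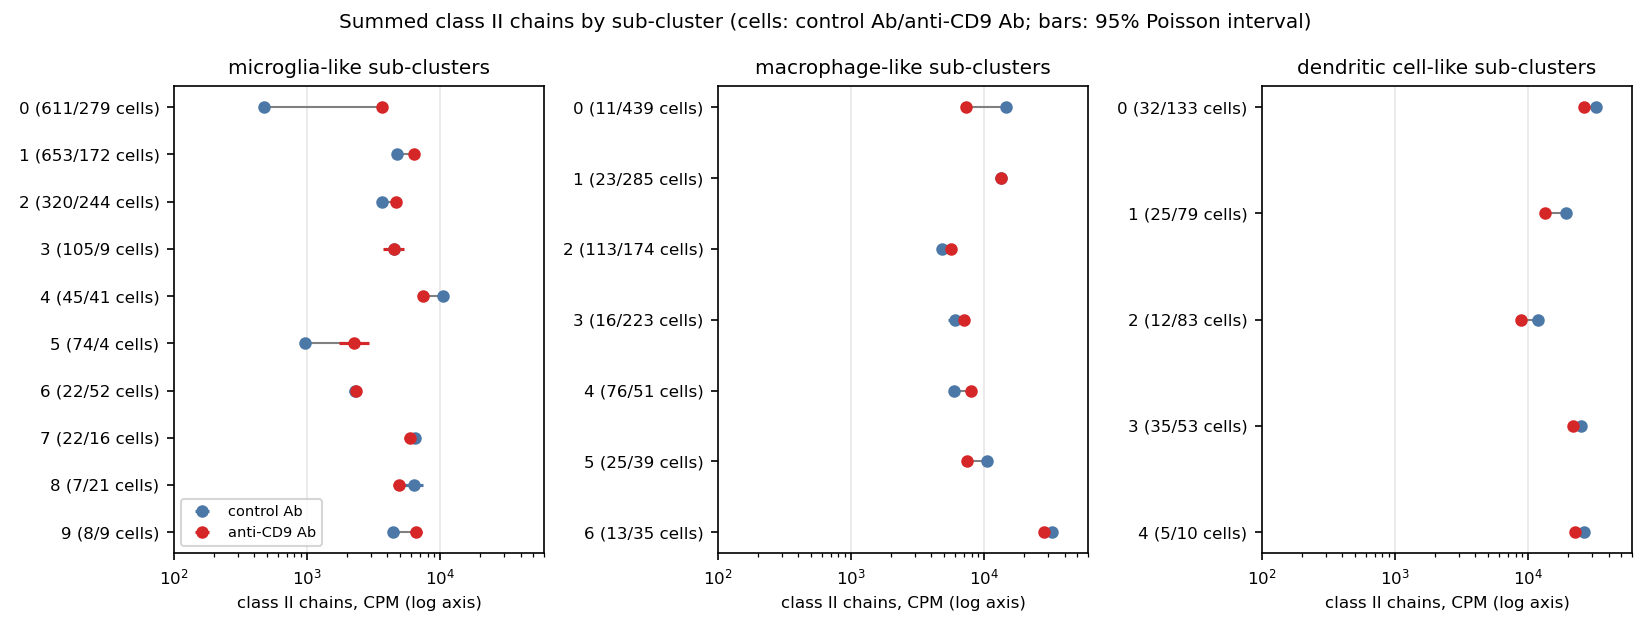
Summed class II chains (CPM, log axis) in each sub-cluster of microglia-like, macrophage-like and dendritic cell-like cells, with control Ab in blue and anti-CD9 Ab in red; bars are 95% Poisson intervals and cell numbers stand beside each row. Microglia-like sub-cluster 0 has the widest gap (477 and 3613 CPM), and in the dendritic sub-clusters, of which sub-cluster 1 was 47.1% predicted doublets, the red point is to the left of the blue one.

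Other marker lists also differed between the libraries in microglia-like cells, in both directions. The summed level of interferon-responsive markers was 217 and 659 CPM in cluster 3, and 459 and 1111 CPM in cluster 6, where the chains had a log2 ratio of −0.0095 that moved with the processing. Markers of T cells in cluster 3 were at 87.6 and 17.9 CPM, and macrophage markers at 859.5 and 726 CPM, both lower in the library in which the chains were higher. Astrocyte markers (355 and 621 CPM), dendritic cell markers (290.3 and 337 CPM) and monocyte markers (49.0 and 63.1 CPM) were higher there. In cluster 6, neutrophil markers were at 424 and 1767 CPM and macrophage markers at 1854 and 2309 CPM. The part of these lists in the results was not tested. Predicted doublets were 2.54% of cluster 3 over both libraries, and without them the log2 ratio of the chains was 1.54.

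Cells of cluster 3 were also set apart by their thinned chain UMIs. In the control Ab library, cells with 0, 1 to 2, and 3 or more chain UMIs (632, 198 and 95 cells) held damage-associated markers at 11832, 20210.3 and 34007 CPM. In the anti-CD9 Ab library the same bands (104, 125 and 246 cells) held them at 13146, 8417 and 7247 CPM, the reverse order. The interferon-responsive list went up over the bands in both libraries, at 158, 259.6 and 308 CPM and at 428, 697 and 726 CPM, and each band was higher in the anti-CD9 Ab library. Ciita followed the chains in both libraries (7, 7 and 22 UMIs, and 3, 9 and 75 UMIs), and H2-DMa did so less steeply, at 157, 178 and 270.2 CPM and at 174, 233 and 328 CPM. The highest band also had the deepest cells, with medians of 5726 and 3535.5 UMIs. Macrophage markers ran in the same orders as the damage-associated ones, at 587, 1016 and 1356 CPM and at 847, 757 and 670 CPM. Predicted doublets were 0.63, 3.54 and 6.32% and 4.81, 2.4 and 4.47% of the bands. Without them damage-associated markers kept their orders, at 11143, 20742 and 35294 CPM and at 13089, 8094 and 7425 CPM. The part of depth and of macrophage RNA in these orders was not tested. The bands were drawn after the values were seen.

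In macrophage-like cells, which carried F13a1, Lyz2, Arg1 and Tgfbi, the 7 members were higher in the anti-CD9 Ab library, but most by little. The chains were at 7289 CPM (7184 to 7395) against 8994 CPM (8923 to 9065.7), a log2 ratio of 0.30 (0.28 to 0.33). H2-Aa was at 3089 and 3481 CPM (0.17, 0.14 to 0.21), H2-Ab1 at 1918 and 2797 CPM (0.54, 0.50 to 0.59), and H2-Eb1 at 2282 and 2716 CPM (0.25). Cd74 was at 5604 and 6434 CPM (0.20), H2-DMa at 283 and 307 CPM (0.12, −0.0063 to 0.24) and H2-DMb1 at 224 and 246 CPM (0.14). Ciita was again the member with the highest ratio, at 34.3 CPM (87 UMIs) and 73.7 CPM (504 UMIs), a log2 ratio of 1.10 (0.77 to 1.45), and the only 1 of 7 past 2-fold, where 6.94% of 9623 genes were at least 2-fold higher and 10.5% at least 2-fold lower.

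These macrophage-like ratios moved with the processing. The log2 ratio of the chains was 0.050 with cells thinned to 1000 UMIs, 0.0046 with cells of up to 5% mitochondrial counts and 0.16 with another random seed of the clustering, and Ciita fell under 2-fold in all of these (0.68, 0.66 and 0.86). The Ciita value ranged from 0.59 to 1.26 over 10 settings. Over 10 settings the sign turned in 3 for H2-Aa, in 2 for H2-Eb1, in 2 for Cd74 and in 4 for H2-DMb1, so the direction of these members depended on the setting. Of thinned macrophage-like cells, 62.5% and 62.0% held 3 or more chain UMIs, a difference of −0.57 points (−6.73 to 5.86). Microglial markers were at 6714 and 945 CPM in macrophage-like cells and monocyte markers at 931 and 4549 CPM, and 21.7% and 28.9% of these cells were predicted doublets. Their part in the ratios was not tested. Without predicted doublets the log2 ratio of the chains was 0.38.

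The 7 sub-clusters of macrophage-like cells were far apart in class II. Sub-cluster 6, whose leading genes held Kynu and Dpp4 and also Ciita and H2-Eb1, which had not been used to form it, held the chains at 32168 CPM in 13 cells and 28202 CPM in 35 cells. Predicted doublets were 7.69% and 42.9% of them. Sub-cluster 1, led by Pf4, Tmem176b and Ms4a7, was at 13223 CPM in 23 cells and 13397 CPM in 285 cells (log2 ratio 0.019, −0.053 to 0.091). Sub-cluster 2, led by Fabp5, Gpnmb and Spp1, was at 4835 CPM in 113 cells and 5577 CPM in 174 cells (0.21, 0.14 to 0.27), with Ciita at 14 and 41 UMIs.

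Sub-cluster 3, led by the monocyte genes Vcan, Chil3 and Ccr2, was at 5964 CPM in only 16 cells and 7049 CPM in 223 cells. Sub-cluster 0, led by Nos2, Slc7a2 and Ptges, had 11 cells in the control Ab library and 439 in the other, so that its values of 14518 and 7221 CPM compare a handful of cells with many. Sub-clusters 4 and 5 were predicted doublets in 63.0% and 93.8% of their cells. Sub-cluster 4, whose leading genes held the microglial genes Sparc and Gpr34, alone gave 7860 of the 18483 chain UMIs of macrophage-like cells in the control Ab library.

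In dendritic cell-like cells (109 and 358 cells), the log2 ratios of the 7 members lay between −0.40 and −0.018, and the interval of Ciita lay on both sides of 0. Counting intervals of abundant genes are narrow, and how many of all genes had an interval below 0 was not counted. The chains were at 24249.5 and 19727 CPM, a log2 ratio of −0.30 (−0.33 to −0.27). H2-Aa was at 9573 and 7659 CPM (−0.32), H2-Ab1 at 6031 and 5183 CPM (−0.22), H2-Eb1 at 8646 and 6885 CPM (−0.33), and Cd74 at 15163 and 11962 CPM (−0.34). H2-DMa was at 602 and 516 CPM (−0.22) and H2-DMb1 at 610.3 and 462 CPM (−0.40). Ciita was at 320.2 and 316 CPM (−0.018, −0.26 to 0.23). None of the members passed 2-fold, against 7.74% of 5945 genes higher and 3.6% lower.

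The dendritic cell-like cells came from a pair of clusters whose mix differed between the libraries. Cluster 16, led by Wdfy4 and Flt3 (93 and 195 cells), held the chains at 25600.2 and 23810.2 CPM (log2 ratio −0.10, −0.13 to −0.074), and Ciita at 344 and 431 CPM (0.33, 0.075 to 0.58). Cluster 18, led by the migratory dendritic cell genes Ccr7 and Fscn1 (16 and 163 cells), held fewer, at 10262 and 11544 CPM (0.17, 0.042 to 0.30). Ciita was at 4 and 43 UMIs there, out of totals of 52525 and 499031 UMIs. The lower level of the joined cells was thus larger than that within cluster 16 and opposite to that in cluster 18, whose cells were more numerous in the anti-CD9 Ab library. Markers of mature dendritic cells over all dendritic cell-like cells were at 582 and 1478 CPM, those of conventional dendritic cells at 2424 and 1622 CPM and those of T cells at 1199 and 289 CPM.

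When these cells were clustered alone, 4 of 5 sub-clusters were led by genes of dendritic or cycling cells and held the chains at log2 ratios from −0.42 to −0.19. Sub-cluster 1 (25 and 79 cells) was led by Nav3, Spp1, Cd3g and Trbc2, genes of microglia and T cells, and 68.0% and 40.5% of its cells were predicted doublets. Its log2 ratio was −0.52, and the part of doublets in it was not tested. Sub-cluster 0, led by Cyp7b1, Ifitm1 and Cfp, was at 32265 and 26345 CPM. Sub-cluster 3, whose leading genes held Xcr1 and Clec9a, genes of cross-presenting conventional dendritic cells, was at 24672 and 21660.5 CPM. Sub-cluster 2, led by Fscn1 and Ccr7 (12 and 83 cells), was the lowest at 11734 and 8799 CPM, so the direction seen in cluster 18 was not that of this nearest sub-cluster. Ciita there was at 3 and 2 UMIs, out of totals of 33579 and 290830 UMIs. In sub-cluster 0 it was at 56 and 226 UMIs, out of 145885 and 590972 UMIs. With the sub-clusters weighted as in the control Ab library the log2 ratio of the chains was −0.30, and with cells of up to 5% mitochondrial counts it was −0.11. Of thinned dendritic cell-like cells, 94.4% and 83.4% held 3 or more chain UMIs.

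B cell-like cells, with 29 and 99 cells, held the chains at 9709.7 and 8612.5 CPM (log2 ratio −0.17, −0.29 to −0.059), and the sign turned to 0.13 with up to 5% mitochondrial counts. Microglial markers in these cells were at 4143 and 767 CPM and damage-associated markers at 15758 and 3496 CPM, and 20.7% and 27.3% of the cells were predicted doublets, a part that was not tested. Cd74 was at 8496 and 7759 CPM (−0.13) and Ciita at 16 and 44 UMIs (0.40, −0.45 to 1.33). H2-DMa was at 522 CPM (52 UMIs) and 270.0 CPM (56 UMIs), a log2 ratio of −0.95 (−1.52 to −0.38). Of the 6 members with at least 50 UMIs in these cells, 0 passed 2-fold, against 9.59% of 1105 genes higher and 4.34% lower. Without predicted doublets, H2-DMa passed it (−1.07) among the 5 members with that many UMIs. Plasma cell-like cells, the antibody-secreting stage that has shut Ciita off, kept Cd74 at 3369 and 2287 CPM while the chains were at 1593 and 896 CPM and Ciita at 6 and 5 UMIs.

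The proportions among the members differed by cell type. In microglia-like cells, Cd74 gave 0.95 and 0.96 UMIs per class II chain UMI. The same ratio was 0.77 and 0.72 in macrophage-like cells, 0.63 and 0.61 in dendritic cell-like cells, 0.88 and 0.90 in B cell-like cells and 2.11 and 2.55 in plasma cell-like cells. The I-E β chain relative to the I-A β chain (H2-Eb1 per H2-Ab1 UMI) was 1.00 and 0.99 in microglia-like cells, 1.19 and 0.97 in macrophage-like cells, 1.43 and 1.33 in dendritic cell-like cells and 1.69 and 1.46 in B cell-like cells.

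The α chain of I-A relative to its β chain (H2-Aa per H2-Ab1 UMI) was lower in the anti-CD9 Ab library in microglia-like, macrophage-like and dendritic cell-like cells. It was 1.54 (1.51 to 1.58) and 1.31 (1.26 to 1.37) in microglia-like cells, 1.61 (1.55 to 1.67) and 1.24 (1.22 to 1.27) in macrophage-like cells and 1.59 (1.52 to 1.66) and 1.48 (1.44 to 1.52) in dendritic cell-like cells. In B cell-like cells it was 2.22 (1.87 to 2.64) and 2.08 (1.84 to 2.35). H2-DMb1 per H2-DMa UMI was 0.65 and 0.64 in microglia-like cells, 0.79 and 0.80 in macrophage-like cells, 1.01 and 0.89 in dendritic cell-like cells, and 0.29 and 0.30 in B cell-like cells. H2-DMa per chain UMI in cluster 3 was 0.13 and 0.067. Transcripts were captured at their 3′ ends, so these ratios depend on how well each gene is captured and are read between cells, not between genes.

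The cells that supplied class II transcripts were different in the libraries. Microglia-like cells held 44.3% (43.9 to 44.6%) of the class II chain UMIs of the control Ab library and 11.6% (11.4 to 11.7%) of those of the anti-CD9 Ab library. Macrophage-like cells held 22.9% (22.6 to 23.1%) and 51.4% (51.1 to 51.7%), a difference of 28.5 percentage points, and dendritic cell-like cells 17.9% and 24.7%. Ciita UMIs came from dendritic cell-like cells to 33.3% and 35.6%, from microglia-like cells to 31.2% and 11.4% and from macrophage-like cells to 15.2% and 37.9%. H2-DM UMIs came from microglia-like cells to 54.5% and 19.2%.

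Macrophage-like cells also held 10.2% and 30.2% of all kept UMIs, microglia-like cells 38.2% and 12.9%, and dendritic cell-like cells 2.39% and 6.61%. Had the cell types of the control Ab library kept their own chain levels but been mixed as in the anti-CD9 Ab library, the chains would have been at 4969.9 CPM over all kept cells, next to the observed 3242 and 5279 CPM. With anti-CD9 Ab levels in the control Ab mix they would have been at 3707 CPM. For Ciita the corresponding values were 40.8 and 42.6 CPM, both between the observed 23.0 and 58.7 CPM.

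**Figure D5:**
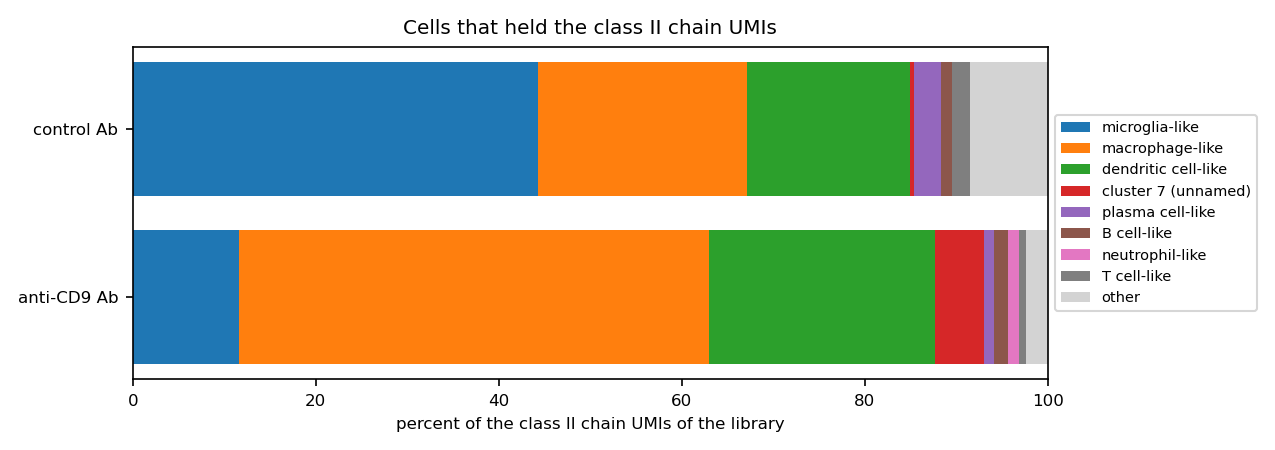
Share of each library's class II chain UMIs (percent, x axis) held by each cell type, with 1 bar per library. Microglia-like cells take 44.3% of the control Ab bar and 11.6% of the anti-CD9 Ab bar, and macrophage-like cells 22.9% and 51.4%.

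The other genes of the pathway were followed in 6 lists with 34 genes. Of 8 genes of the interferon-γ input, 7 had at least 50 UMIs in microglia-like cells, and 3 of these were at least 2-fold higher and 0 lower, where 3.35% of all genes were higher. Irf1, a transcription factor that acts on an inducible Ciita promoter, was at 90.2 and 213 CPM (log2 ratio 1.24, 1.09 to 1.39), and Socs1, an inhibitor of the pathway, at 15.2 and 32.0 CPM (1.07, 0.68 to 1.46). The receptor gene Ifngr1 was at 427 and 403 CPM (−0.083). In macrophage-like cells 4 of 7 were higher, where 6.94% of all genes were, among them Irf1 (109 and 238 CPM), Jak2 (66.2 and 250.2 CPM) and Socs1 (13.4 and 106 CPM). In dendritic cell-like cells 2 of 7 were higher, where 7.74% of all genes were, Irf1 (132 and 342 CPM) and Socs1 (53.6 and 115 CPM), while the chains there were lower. The median log2 ratio of this list was 0.62, 1.12 and 0.71 in these types, where that of all genes was 0.0075, −0.13 and −0.023.

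Ifng itself had 21 and 0 UMIs in microglia-like cells, next to 200 and 8 UMIs of the T cell gene Cd3e. Within microglia, Irf1 was at 90.7 and 195 CPM in cluster 3 (1.10) and at 89.8 and 234 CPM in cluster 6 (1.38), so that it was higher in the anti-CD9 Ab library in both clusters. The chains had log2 ratios of 1.49 and −0.0095, of which the cluster 6 value moved with the processing.

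The factors that hold Ciita at the promoters (Rfx5, Rfxank, Rfxap, Nfya, Nfyb, Nfyc and Creb1) had 0 genes past 2-fold in microglia-like cells and macrophage-like cells, where all 7 had at least 50 UMIs, and 0 of 5 in dendritic cell-like cells. Of all genes, 3.35% were at least 2-fold higher and 4.24% lower in microglia-like cells. These shares were 6.94% and 10.5% in macrophage-like cells, and 7.74% and 3.6% in dendritic cell-like cells. With so few factors, a count of 0 is near these shares. The median log2 ratio of the factors in microglia-like cells was −0.052. Creb1 was at 154 and 163 CPM, and Nfyc at 71.6 and 86.6 CPM.

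Among the other class II genes, H2-Ea had 0 UMIs in microglia-like, macrophage-like, dendritic cell-like, B cell-like and T cell-like cells of both libraries. H2-Oa, a chain of H2-DO, which inhibits H2-DM, was at 68.4 and 90.6 CPM in microglia-like cells (log2 ratio 0.41, 0.19 to 0.61) and at 40.6 and 11.7 CPM in macrophage-like cells (−1.80, −2.24 to −1.36). H2-Ob, the other chain, was at 24.2 and 14.3 CPM in microglia-like cells (−0.76, −1.27 to −0.28) and at 15.4 and 4.10 CPM in macrophage-like cells (−1.91, −2.66 to −1.17). Microglial markers in macrophage-like cells were at 6714 and 945 CPM, and their part in these values was not tested.

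The genes that make peptides for class II were mixed. Of 5, only Ifi30, a thiol reductase of endosomes, was at least 2-fold higher in microglia-like cells, at 273 and 596 CPM (1.12, 1.04 to 1.21), where 3.35% of all genes were higher and 4.24% lower. Ctss, the protease that cuts the invariant chain in most antigen-presenting cells, was at 5285 and 6885 CPM (0.38). Ctsl was lower at 3922 and 1959.8 CPM (−1.001), just past 2-fold, and Cst3, an inhibitor of cathepsins, was at 10163 and 5661 CPM (−0.84). In macrophage-like cells 0 of 5 were at least 2-fold higher and 3 were lower, against 6.94% and 10.5% of all genes. These were Ctsl (2388 and 462 CPM), Cst3 (4341 and 1073 CPM) and Lgmn (1696 and 775 CPM). In the control Ab library all 3 were at higher CPM in microglia-like cells, where Lgmn was at 2477 CPM. Macrophage-like cells held microglial markers at 6714 and 945 CPM, and the part of microglial RNA in these values was not tested.

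Among the genes of turnover and costimulation, Marchf1, the ubiquitin ligase that removes class II from the surface, was at 240.2 and 541 CPM in microglia-like cells (1.17, 1.08 to 1.27) and at 119 and 413 CPM in macrophage-like cells (1.80, 1.62 to 1.97). Cd40 was at 6.41 and 21.8 CPM and at 18.9 and 91.0 CPM in the same types. Cd83, which opposes Marchf1, was lower in both, at 366 and 224 CPM and at 180.2 and 28.8 CPM. Cd86 was at 442 and 505 CPM and at 212 and 141 CPM, in opposite directions. The part of microglial RNA in the macrophage-like values was not tested. Transcripts of T cell readers in microglia-like cells were lower in the anti-CD9 Ab library, with Trac at 16.3 and 3.41 CPM and Cd3e at 21.02 and 2.73 CPM. Of 3 such genes, 2 were past 2-fold, against 4.24% of all genes. Microglia-like sub-cluster 3, led by Skap1, Cd3g and Ms4a4b, was 71.9% predicted doublets and had 105 and 9 cells. Its T cell markers were at 1171 and 1518 CPM. The part of doublets and of free T cell RNA in the Trac and Cd3e values was not tested. Lag3, a class II ligand that microglia also transcribe, was at 404 and 226 CPM.

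The genes most like the class II chains were sought over 41 points (24 clusters by library, with at least 30 cells each) among 9319 genes outside the lists with at least 500 UMIs, by Pearson's r of log2(CPM + 10). The points share libraries, depth and free RNA, so r is a description. The leading genes were Ctsh (r = 0.87), a lysosomal protease, BC028528 (0.86), Tbc1d9 (0.84), Cxcl16 (0.84), Kynu (0.82), Prcp (0.81), Acvrl1 (0.80), Ms4a6c (0.79), Rnase6 (0.79) and Hfe (0.78). Of the members, Cd74 had r = 0.98, H2-DMb1 0.92, H2-DMa 0.85 and Ciita 0.83 with the summed chains, and of the pathway lists Ifi30 was closest at 0.93. Irf1 had 0.081.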

How the data were processed

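Live CD45+ cells of the injured thalamus were profiled by 10x 3′ v3.1 scRNA-seq, with 1 library per antibody. The authors deposited UMI counts per gene and barcode, unnormalized, for called cells. The submitters' processing notes name Cell Ranger 8.0.0 and GRCm39, and the study's methods an older release and GRCm38. Values above rest on the deposited counts.

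Cells were kept by the study's limits (at least 200 and at most 7500 genes, mitochondrial share of at most 2%). Counts were scaled to 10000 UMIs and the libraries were integrated on 2000 variable genes with Seurat 5.3.0 (R 4.3.3), without 41 class II and pathway genes, using 30 components and resolution 0.8. A cluster was named when at least 3 markers and 50% of a list were found in 10% of its cells and at least 2-fold higher. Clusters with more than 50% predicted doublets, with shallow cells and no leading marker, or with more leading genes from another list took no name. These limits, and the joining of the dendritic cell lists, were set after the clusters had been seen, so names may differ from the study's. Cluster borders moved when the same steps ran with other floating-point arithmetic, so 1 setting was fixed and another random seed was tried. Doublets were predicted from simulated doublets (0.8% per 1000 barcodes, 50 neighbours) in each library and marked, not removed. Microglia-like, macrophage-like and dendritic cell-like cells were clustered again (20 components, resolution 0.5).

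UMIs were summed per type and divided by all UMIs of its cells (CPM). Intervals are exact Poisson for CPM, Clopper-Pearson for shares, Newcombe for differences of shares and a binomial split for ratios, at 95%, and cover counting error only. With 1 library per group no p-value was computed. Genes with at least 50 UMIs in a type entered the 2-fold counts. Cells were thinned to 1000 UMIs for shares, leaving out 42 and 20 microglia-like and 345 and 76 T cell-like cells. Log2 ratios with thinned cells are of the mean UMIs expected after thinning, not of a random draw. The 7 members are named throughout, the pathway genes by list, and the 10 genes most like the chains by correlation. Members, lists and comparisons were chosen with earlier results of these data known. The scripts used Python 3.11.15 with SciPy 1.17.1 and scikit-learn 1.9.0. Of their steps, only the log2 ratio and its interval were tested on simulated counts. Some genes of the lists are not reported here.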

Additional observations from a re-analysis of the deposited data

Results flagged for a closer look

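The class II chains were higher in the anti-CD9 Ab library in microglia-like cells (log2 ratio 0.32) and lower in dendritic cell-like cells (−0.30). The opposite signs were flagged, and the difference between the types was not tested, since each antibody had 1 library.

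The barcodes left out for more than 2% mitochondrial counts also held class II transcripts. The chains were at 3089.9 CPM (3059.0 to 3121.1) in 4743 such barcodes of the control Ab library and at 5420.4 CPM (5386.5 to 5454.3) in 5998 of the anti-CD9 Ab library. These levels were near the 3242 and 5279 CPM of the kept cells.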

How the results depend on the processing

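No paired analysis was possible because each antibody has 1 library, and for the same reason no replicate could be left out. Log2 ratios of the class II chains were 0.70 over all cells, 0.32 in microglia-like, 0.30 in macrophage-like, −0.30 in dendritic cell-like and −0.17 in B cell-like cells, and 1.49 and −0.0095 in clusters 3 and 6; the causes of the moves below were not tested. In this order, cells thinned to 1000 UMIs gave 0.95, 0.66, 0.050, −0.40, −0.32, 2.23 and 0.13, with H2-Aa at −0.084, H2-Eb1 at −0.011, Cd74 at −0.021 and H2-DMb1 at −0.050 in macrophage-like cells. Cells up to 5% mitochondrial counts gave 0.75, 0.26, 0.0046, −0.11, 0.13, 1.66 and 0.17, with H2-Aa at −0.13, H2-Eb1 at −0.046, Cd74 at −0.12 and H2-DMb1 at −0.11 in macrophage-like cells and H2-Eb1 at 0.10 and H2-DMa at 0.0037 in B cell-like cells. Without predicted doublets they were 0.66 over all cells, 0.40 in microglia-like, 0.38 in macrophage-like, −0.35 in dendritic cell-like cells and 0.14 in cluster 6. Subtracting the T cell level gave 0.77 over all cells, 0.36 in microglia-like cells and 1.74 in cluster 3. Leaving out the most abundant genes gave 0.75, 0.28, 0.27 (macrophage-like) and −0.052 (cluster 6), and adding Cd74 to the chains gave 0.26 in macrophage-like cells. Other clusterings moved the microglia-like, macrophage-like, cluster 3 and cluster 6 values to 0.37, 0.11, 1.26 and 0.48 without integration (with −0.34 in B cell-like cells and H2-Aa at −0.051 in macrophage-like cells), to 0.40, 0.27, 1.66 and 0.22 with 20 components, and to 0.28, 0.18, 1.58 and 0.11 with class II genes kept (with −0.45 in B cell-like cells and H2-DMb1 at −0.017 in macrophage-like cells). Another clustering seed gave 0.16 in macrophage-like cells, where H2-DMb1 was at −0.058, and 0.15 in cluster 6. The sub-cluster mix of the control Ab library gave 0.47 in microglia-like and 0.14 in macrophage-like cells. The difference in the share of microglia-like cells with 3 or more chain UMIs (20.8 points) was 13.8 for 5 or more, 13.6 without integration, 41.5 in cluster 3 and 0.14 in cluster 6. The macrophage-like share of chain UMIs differed by 28.5 points, and by 28.0 without doublets, 36.7 up to 5% mitochondrial counts, 42.2 without integration, 37.0 with class II genes kept and 35.6 with another seed. The 2 member values past 2-fold, Ciita in microglia-like and macrophage-like cells, became 1 with thinned cells, with up to 5% mitochondrial counts and with another seed. The percent of all genes past 2-fold, with minimums of 20, 50 and 200 UMIs, was 10.9, 7.58 and 5.13 in microglia-like, 21.2, 17.5 and 14.3 in macrophage-like and 19.1, 13.9 and 8.47 in B cell-like cells, and 14.7 and 11.3 with minimums of 20 and 50 in dendritic cell-like cells. Of 280 member values over 10 settings, 198 stayed within their counting interval, 69 moved and 13 turned sign. Only values whose main interval held a single sign could count as turned. Other changes of sign are among the 198 and 69, such as H2-Ab1 in B cell-like cells (−0.37 to 0.36 over the settings). The alternatives on clusters 3 and 6, on the sub-cluster mix and on the seed were chosen after seeing the data.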

Other observations

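Clusters that took no cell type name also held class II. Cluster 7, led by Arg1, Stmn1 and Hmgb2, had 34 and 1221 cells in the control Ab and anti-CD9 Ab libraries, with the chains at 3198 and 4688 CPM. Ciita was at 2 and 71 UMIs there, out of totals of 88796 and 1365709 UMIs. This cluster held 0.35% and 5.35% of the chain UMIs of the libraries. Cluster 9, led by Lysmd4, Gm2245 and Gm35188 and nearest to microglia by its markers (3 of 10 up), had 360 and 213 shallow cells with median depths of 816.5 and 805 UMIs. Its chains were at 1210.1 and 1445 CPM (log2 ratio 0.26, 0.033 to 0.48), H2-Eb1 at 342 and 559 CPM (0.71, 0.32 to 1.10) and H2-Aa at 484 and 492 CPM, and of 122 and 62 cells deep enough for thinning 17.2% and 17.7% held 3 or more chain UMIs. Homeostatic markers there were at 2252 and 719.98 CPM and damage-associated markers at 19194 and 10701 CPM. Cluster 21, cycling cells with some microglial markers (54 and 47 cells, 33.7% predicted doublets), was at 5479 and 4491 CPM. Cluster 10, led by Gzma, Nkg7 and Cd8b1 with markers of both T and NK cells (373 and 157 cells), was at 160.1 and 599 CPM, with Cd74 at 149 and 411 CPM. Cluster 13, led by the neural genes Kcnip4 and Opcml (300 and 77 cells), was at 352 and 1548 CPM, with median depths of 2620.5 and 978 UMIs.

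Cycling T cell-like cells (cluster 20, 37 and 88 cells, 18.4% predicted doublets) held the chains at 636 and 259.9 CPM (log2 ratio −1.29, −1.64 to −0.94), lower in the anti-CD9 Ab library.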
